A study of Mus musculus with 8 samples.

Results

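Respiratory complex I is the entry point of the mitochondrial electron transport chain, and the 35 genes described here are the nuclear genes whose symbols name a numbered subunit of it (Ndufa, Ndufb, Ndufc, Ndufs and Ndufv). The Ndufaf genes, which encode assembly factors, are not among them. A gene entered when a probe set of the array carried its symbol alone, and the probe set with the highest mean over the 8 arrays stood for it. The 35 are among 19938 genes measured in that way. Ndufb1, Ndufb4, Ndufb4b and Ndufb4c were not analysed here as members.

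RNA came from the hearts of 8 C57Bl6 mice, 9 weeks old, with 1 array for each animal and 2 animals in each of 4 groups. S105A mice, homozygous for an S105A form of the cardiac transcription factor GATA4, received PE (arrays 7 and 8) or no PE (arrays 5 and 6). WT mice likewise received PE (arrays 3 and 4) or none (arrays 1 and 2). PE was delivered subcutaneously by osmotic pump at 100 mg/kg/day for 5 days. The labels write the drug out as pseudophedrine or pseudoephedrine, title the controls untreated while the protocol mentions saline, and give the tissue as whole heart in one field and ventricle in another. How the S105A allele was made, and whether it is carried in cells outside the heart muscle, is not given in the sources used here. A point change is not visible in expression levels, so the genotypes rest on the labels. Values are log2 expression levels, in which a difference of 1 is a doubling of the signal. A level is compared only with levels of the same probe set, except where members are split by untreated level or correlated with it.

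Complex I passes electrons from NADH to ubiquinone and pumps protons across the inner mitochondrial membrane. Its core subunits carry the flavin, the iron-sulfur clusters and the proton channels. The nuclear genome encodes the redox-active core subunits and all the accessory subunits that surround them, whereas the mitochondrial genome encodes the proton-pumping ones, and heart muscle, which relies on oxidative phosphorylation for most of its ATP, holds the complex in abundance.

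Array 3 (WT, PE) and array 7 (S105A, PE) stood apart from the other 6 arrays. On the first principal component of all genes, which held 69.5% of the variance, array 7 lay at 25.1 and array 3 at 53.3, PE arrays 8 and 4 at -5.00 and -0.41, while the arrays of mice without PE spanned -20.8 to -16.1. The medians of gene lists for PE against untreated are therefore given with all arrays and without arrays 3 and 7. In the latter case array 8 (S105A) or array 4 (WT) alone is set against its untreated pair. The principal genes are given array by array. A split of the members by untreated level, and cell marker medians of S105A against WT, are given with all arrays only. The 12 ventricular cardiomyocyte markers, Myh6 and Tnnt2 among them, were present throughout, with a mean level of 13.19 and 13.20 in S105A PE hearts and 13.21 and 13.22 in S105A untreated hearts. In WT hearts their mean level was 12.99 and 13.22 with PE, against 13.20 and 13.22 without it.

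All 35 complex I genes had a lower mean level with PE than without it in S105A hearts and again in WT hearts, but no single difference passed the test. In S105A hearts the median difference was -0.26 (a change of -16.4%), with a range of -0.61 to -0.03, against a median of -0.02 over all genes, of which 56.4% were below 0. In WT hearts it was -0.44 (a change of -26.2%), with a range of -0.70 to -0.05, against -0.004 over all genes, of which 51.1% were below 0. Averaged over both genotypes, the median was -0.34 (a change of -20.8%), with 35 of 35 below 0, against -0.02 over all genes, of which 56% were below 0. Ndufa5, an accessory subunit of the matrix arm, had the most negative averaged difference (-0.66), and Ndufb6, a small membrane subunit, the least negative (-0.07). In whole tissue, fewer cardiomyocytes and less complex I RNA in each cardiomyocyte cannot be told apart.

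The test was limma's moderated test over all 19938 genes with Benjamini-Hochberg adjustment and a threshold of 0.05. It called 0 of 35 complex I genes in S105A hearts, where the background was 0% of all genes, and 0 of 35 in WT hearts, where it was 0.00502%. It also called 0 of 35 for the averaged difference, against 0.00502% of all genes. The smallest adjusted p of a member under limma was 0.765 in S105A, 0.419 in WT and 0.277 for the average. At an unadjusted p under 0.05, 0 members were lower in S105A (2.77% of all genes), 3 in WT (Ndufs5, Ndufb8 and Ndufv3, against 5.76% of all genes) and 10 for the average (7.44% of all genes). The members' share was above the background for the average, near it in WT and below it in S105A.

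The 2 PE animals of each genotype differed from each other by more than the untreated animals did, with a median gap over the 35 genes of -0.20 (array 7 minus 8) and -0.71 (array 3 minus 4), against 0.05 and -0.01 in the untreated S105A and WT pairs. Against the mean of the 2 untreated arrays of its genotype, the median over the 35 genes was -0.37 on array 7 and -0.16 on array 8 (both S105A). It was -0.81 on array 3 and -0.06 on array 4 (both WT), which are changes of -43.1% and -4.34% on the linear scale. Array 7 was below both untreated S105A arrays for 34 of 35 members (47.7% of all genes) and array 8 for 33 (35.1%). Array 3 was below both untreated WT arrays for 34 members (43.1% of all genes) and array 4 for 24 (34.9%). Array 4 lay above both untreated arrays for 4 members, namely Ndufa4, Ndufa7, Ndufb3 and Ndufb7, against 7392 of 19938 genes in all.

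**Figure D1:**
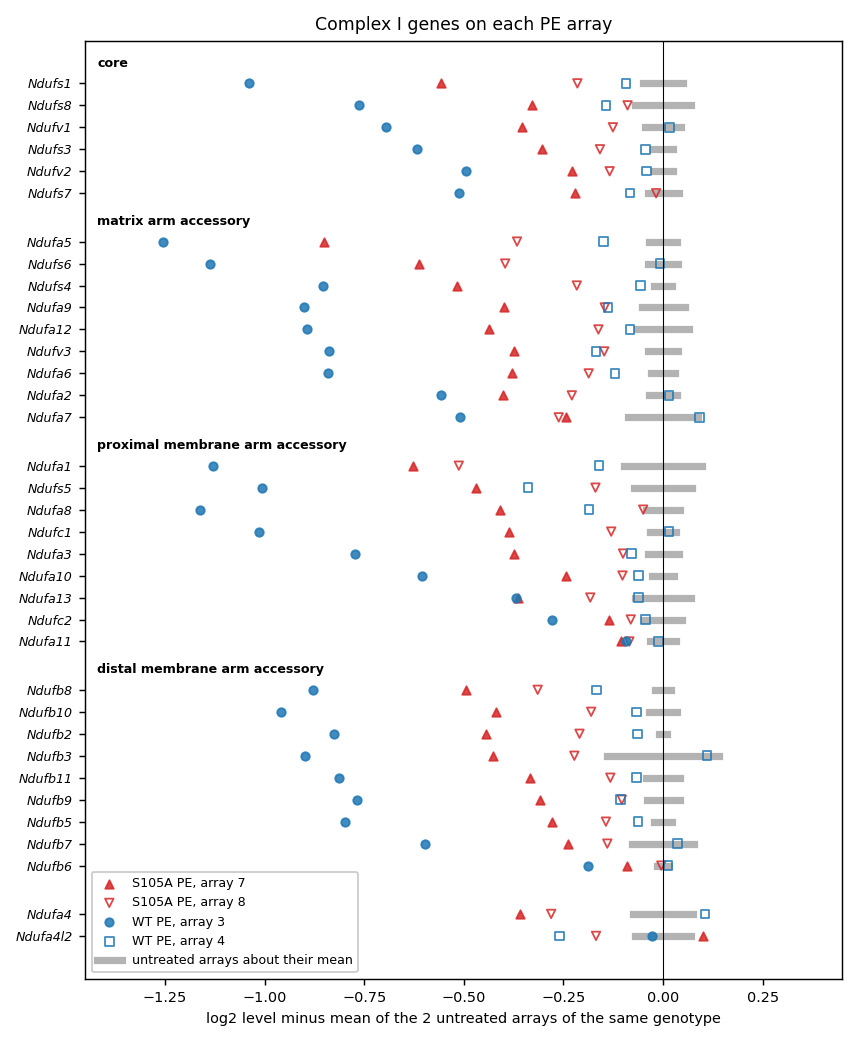
Log2 level of each of the 35 complex I genes on each PE array minus the mean of the 2 untreated arrays of the same genotype (x axis), with genes grouped by their place in the complex (y axis). Triangles are the S105A PE arrays, and circles and squares the WT PE arrays. Each grey bar spans an untreated pair about its mean, in the genotype where that pair was wider. A point can therefore lie inside the bar and yet outside the untreated arrays of its own genotype. Array 3 lies farthest left for most genes, with a median of -0.81, and array 4 close to 0, with a median of -0.06.

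Array 3 held the lowest of the 8 values for 33 of the 35 genes, the exceptions being Ndufa11 and Ndufa4l2, and for 25.9% of all genes. For 31 members array 3 was lowest and array 7 next, an order found in 13.5% of all genes. Across the 35 genes, the gap between arrays 7 and 8 and the gap between arrays 3 and 4 had a Pearson correlation of 0.72 (Spearman 0.61), against 0.67 (0.51) over all genes. These are correlations across genes of the same arrays, which are not independent replicates. Without arrays 3 and 7, which leaves 1 PE array in each genotype, the median difference was -0.16 in S105A, with 35 of 35 below 0, and -0.06 in WT, with 27 of 35 below 0, and 0 of 35 were called in either.

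Which WT PE animal was kept decided the WT result. Leaving out 1 PE array leaves a lone heart in its group, which is assumed to vary like the other groups. The PE pairs differed more than the untreated pairs, so calls made without array 4 rest on 1 WT PE heart and are not a group result. Without array 4, the median in WT was -0.81 and 30 of the 35 genes passed limma's test, with 17.8% of all genes passing it as well. Without array 3, the median in WT was -0.06 and 0 passed. For the averaged difference, 31 of 35 passed without array 4, against 20.7% of all genes, and the median without array 3 was -0.16. Without arrays 3 and 7 the averaged median was -0.11, with 34 of 35 below 0 and 0 called. In S105A, the median was -0.37 without array 8 and -0.16 without array 7, with 0 called in both cases.

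Members whose upstream stretch overlaps no annotated gene were ranked by averaged difference. Ndufa5 and then Ndufs5 were the most negative of these, and Ndufb6 and then Ndufc2 the least negative. Promoter sequences from RefSeq (build GRCm38.p6) are shown for 3 of these genes, namely Ndufa5, Ndufs5 and Ndufb6. Each runs 5′ to 3′ on the strand of its gene and covers the 250 bases before the annotated transcription start that lies farthest upstream. Capitals mark an exact match to a searched motif, and Ndufa5 holds none.

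Ndufa5, chr6:24527691-24527940, minus strand: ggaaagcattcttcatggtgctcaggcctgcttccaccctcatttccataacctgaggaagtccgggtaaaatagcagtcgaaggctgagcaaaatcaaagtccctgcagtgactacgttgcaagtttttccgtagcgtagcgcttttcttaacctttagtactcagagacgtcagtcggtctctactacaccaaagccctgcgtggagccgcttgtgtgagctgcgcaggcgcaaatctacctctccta

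Ndufs5, chr4:123718187-123718436, minus strand: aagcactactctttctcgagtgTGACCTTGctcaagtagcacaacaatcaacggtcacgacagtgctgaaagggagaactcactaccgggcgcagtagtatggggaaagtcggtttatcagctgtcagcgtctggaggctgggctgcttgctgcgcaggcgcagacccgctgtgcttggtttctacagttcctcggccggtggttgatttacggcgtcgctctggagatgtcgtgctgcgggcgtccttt

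Ndufb6, chr4:40279422-40279671, minus strand: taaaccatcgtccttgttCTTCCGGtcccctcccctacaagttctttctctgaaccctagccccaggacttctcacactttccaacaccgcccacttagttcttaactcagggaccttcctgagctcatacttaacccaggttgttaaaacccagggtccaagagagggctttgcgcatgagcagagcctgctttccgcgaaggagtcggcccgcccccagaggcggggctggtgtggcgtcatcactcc

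The motifs were those of factors long tied to respiratory genes, searched with exact letters on both strands of the 250 upstream bases of 31 members and 15562 promoters in all. The other members, Ndufa2, Ndufa4l2, Ndufb9 and Ndufs1, were not used here. CAAGGTCA, bound by the oestrogen-related receptors, was present in 1 member, Ndufs5, where the capitals show its reverse complement, and in 1.05% of all promoters. The ETS core CCGGAAG was present in 3 members, Ndufb6, Ndufb7 and Ndufs3, or 9.7%, against 9.63% of all promoters. GCGCATGC, the start of the NRF1 site, was present in Ndufa6, Ndufa8 and Ndufa11 (9.7% against 3.22%), with overlapping matches on both strands of Ndufa11. The cAMP-response motif TGACGTCA was present in Ndufa10, Ndufa11 and Ndufb2 (9.7% against 2.1%), and the YY1 motif AAGATGGCG in 0 of 31 members and 0.752% of promoters. Across the 31, matches were thus few. The 3 members with the ETS core, which include Ndufb6, had a median averaged difference of -0.24, against -0.37 in the 28 without it. Averaged differences were -0.38, -0.45 and -0.07 for Ndufa6, Ndufa8 and Ndufa11 with the NRF1 motif. They were -0.25, -0.07 and -0.39 for Ndufa10, Ndufa11 and Ndufb2 with the cAMP-response motif. A link of any motif to the PE difference was not tested.

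The core is represented by 6 nuclear genes. Ndufs1, which holds several of the iron-sulfur clusters that lead electrons away from NADH, had levels of 11.66 and 12.01 in S105A PE hearts, against 12.27 and 12.17 in S105A untreated hearts. In WT hearts its levels were 11.04 and 11.99 with PE, against 12.09 and 12.07 without. Each PE value of Ndufs1 was below every untreated value, and array 3 was lowest by far. The difference was -0.39 in S105A (SE 0.28, limma adjusted p = 0.767) and -0.57 in WT (SE 0.28, limma adjusted p = 0.429).

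Ndufv1, which binds NADH and the flavin, had levels of 12.04 and 12.27 in S105A PE hearts, against 12.44 and 12.35 in S105A untreated hearts. In WT hearts the levels were 11.58 and 12.29 with PE and 12.32 and 12.23 without. The S105A groups did not overlap, whereas in WT array 4 lay between the untreated arrays. Ndufv2, its iron-sulfur partner at the tip of the matrix arm, had levels of 12.64 and 12.74 in S105A PE hearts, against 12.85 and 12.90 in S105A untreated hearts, and 12.28 and 12.74 in WT PE hearts, against 12.78 and 12.78 in WT untreated hearts. Both genotypes were separated for Ndufv2, although array 4 was only just below its controls.

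Ndufs7, which carries the last cluster before ubiquinone, had levels of 12.98 and 13.18 in S105A PE hearts, against 13.24 and 13.16 in S105A untreated hearts. With PE the WT levels were 12.78 and 13.21, against 13.26 and 13.32 without. It was the core gene whose S105A groups overlapped, through array 8. Its neighbour Ndufs8, with a further pair of clusters, had levels of 11.76 and 11.99 in S105A PE hearts and 12.15 and 12.01 in S105A untreated hearts, and 11.37 and 11.99 in WT PE hearts and 12.08 and 12.19 in WT untreated hearts. Ndufs3, part of the quinone-binding module, had levels of 12.11 and 12.26 in S105A PE hearts and 12.39 and 12.44 in S105A untreated hearts, and 11.73 and 12.30 in WT PE hearts and 12.34 and 12.35 in WT untreated hearts. For both of these genes all PE values were below all untreated values. The core median was -0.22 in S105A and -0.34 in WT, with 6 of 6 below 0 in each and 0 called. It was -0.13 in S105A and -0.06 in WT without arrays 3 and 7.

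**Figure D2:**
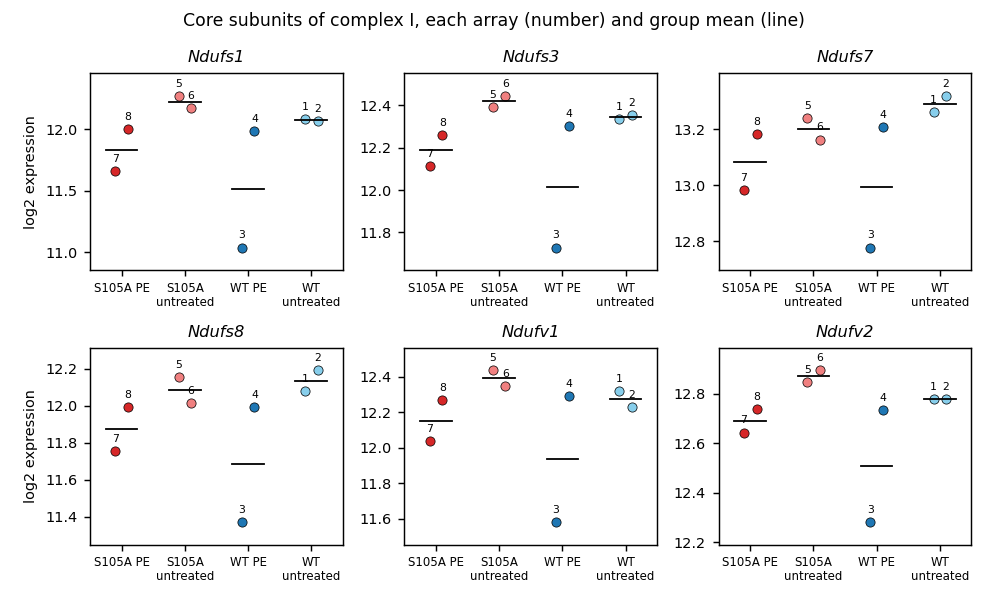
Log2 level (y axis) of the 6 core subunits described in each group (x axis), with 1 point for each array, labelled by array number, and a line at the group mean. Array 3 is the lowest point in every panel, while array 4 lies near the WT untreated arrays, and array 7 is below array 8 throughout.

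The 9 accessory subunits of the matrix arm had a median difference of -0.30 in S105A and -0.49 in WT, with 9 of 9 below 0 in each. These medians were -0.22 and -0.08 without arrays 3 and 7. Array 4 was below both untreated arrays for 6 of the 9, against 34.9% of all genes. Ndufa5, a helical subunit on the outside of the arm, had levels of 9.72 and 10.20 in S105A PE hearts, against 10.54 and 10.60 in S105A untreated hearts. In WT hearts its levels were 8.98 and 10.08 with PE, against 10.27 and 10.20 without. Groups were apart within each genotype, and array 8 equalled the lower WT untreated array to 2 decimals. Its difference was the most negative of all members in S105A (-0.61, SE 0.34, limma adjusted p = 0.765) and in WT (-0.70, SE 0.34, limma adjusted p = 0.424).

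Ndufs6, a zinc-binding subunit needed to attach the NADH-oxidising module, had levels of 10.01 and 10.22 in S105A PE hearts, against 10.58 and 10.66 in S105A untreated hearts. With PE the WT levels were 9.11 and 10.24, against 10.28 and 10.23 without. Array 4 fell between the WT untreated arrays, so the WT groups overlapped, and those of S105A did not. The difference was -0.51 in S105A (SE 0.32) and -0.57 in WT (SE 0.32). Ndufs4, whose loss in mice causes a fatal encephalopathy, had a difference of -0.37 in S105A and -0.46 in WT. Ndufa9, which lies near the ubiquinone site, differed by -0.27 in S105A and -0.52 in WT, and Ndufv3, which sits beside the NADH-binding subunits, by -0.26 and -0.50.

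Ndufa6, which holds the mitochondrial acyl carrier protein, and Ndufa12, which takes the place of Ndufaf2 late in assembly, differed by -0.28 and -0.30 in S105A and by -0.48 and -0.49 in WT. Ndufa2, which has a thioredoxin-like fold, and Ndufa7 were the matrix arm genes with a slightly more negative difference in S105A (-0.32 and -0.25) than in WT (-0.27 and -0.21). In WT, their array 4 values were 10.87 and 10.18, against 10.82 and 10.89 for Ndufa2 and 10.14 and 10.03 for Ndufa7 without PE. Array 4 was therefore within the untreated range for Ndufa2 and above it for Ndufa7. The acyl carrier protein itself, Ndufab1, whose symbol falls outside the set, differed by -0.29 in S105A and -0.41 in WT.

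In the proximal membrane arm, 9 accessory subunits had a median difference of -0.24 in S105A and -0.43 in WT, again with 9 of 9 below 0. With arrays 3 and 7 left out the medians were -0.10 in S105A and -0.06 in WT. Ndufa1, a small X-linked subunit needed for assembly of the membrane arm, had levels of 9.79 and 9.91 in S105A PE hearts, against 10.32 and 10.52 in S105A untreated hearts. In WT hearts they were 8.95 and 9.92 with PE, against 10.11 and 10.04 without. All 4 PE values of Ndufa1 were below all 4 untreated values. Its averaged difference was -0.61 (SE 0.20, limma adjusted p = 0.281).

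Ndufs5 and Ndufa8 are disulfide-bonded subunits on the face towards the intermembrane space. Ndufs5 had levels of 8.71 and 9.01 in S105A PE hearts, against 9.15 and 9.21 in S105A untreated hearts, and 8.20 and 8.86 in WT PE hearts, against 9.28 and 9.13 in WT untreated hearts. Ndufa8 had levels of 11.25 and 11.61 in S105A PE hearts, against 11.62 and 11.70 in S105A untreated hearts, and 10.53 and 11.50 in WT PE hearts, against 11.66 and 11.72 in WT untreated hearts. Both genes had every PE value below every untreated one, though array 8 lay within 0.05 of an untreated S105A array for Ndufa8. Ndufs5 had the smallest p in WT (difference -0.67, SE 0.22, limma adjusted p = 0.419) and for the average (-0.50, SE 0.15, limma adjusted p = 0.277). A further probe set shared by Ndufs5 and its pseudogene Ndufs5-ps, which is no member, differed by -0.43 in S105A and -0.12 in WT.

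At the weak end of this arm were Ndufa11 and Ndufc2. Ndufa11, a membrane subunit at the junction of the arms, had levels of 11.71 and 11.73 in S105A PE hearts, against 11.79 and 11.84 in S105A untreated hearts, and 11.73 and 11.81 in WT PE hearts, against 11.79 and 11.86 in WT untreated hearts. Its values spanned the narrowest range of those given so far, and the WT groups overlapped. Its difference was -0.09 in S105A and -0.05 in WT (SE 0.08 in each). Its second probe set with that symbol alone differed by -0.16 in S105A and by 0.07 in WT, so the sign in WT depended on the probe set. Ndufc2, a membrane-spanning subunit, differed by -0.11 in S105A and -0.16 in WT. Ndufa13, also known as GRIM-19, differed by -0.27 in S105A and -0.22 in WT, and Ndufa10, which has a nucleoside kinase fold, by -0.17 and -0.33. The small membrane-spanning subunits Ndufa3 and Ndufc1 differed by -0.24 and -0.26 in S105A and by -0.43 and -0.50 in WT.

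The 9 measured subunits of the distal membrane arm had a median difference of -0.23 in S105A and -0.44 in WT, with 9 of 9 below 0 in each. They were -0.14 and -0.06 without arrays 3 and 7. Array 4 lay above both untreated arrays for 2 of the 9, against 7392 of 19938 genes in all. Ndufb8, a membrane subunit commonly used as a marker of assembled complex I on blots, had levels of 11.24 and 11.42 in S105A PE hearts, against 11.71 and 11.75 in S105A untreated hearts. In WT hearts the levels were 10.66 and 11.37 with PE, against 11.54 and 11.54 without. Its 4 PE values were all below its 4 untreated values, and its difference was -0.40 in S105A (SE 0.21, limma adjusted p = 0.765) and -0.52 in WT (SE 0.21, limma adjusted p = 0.419). Ndufb10, with a disulfide-bonded fold, differed by -0.30 in S105A and -0.51 in WT. The X-linked Ndufb11 differed by -0.23 and -0.44, Ndufb2 by -0.33 and -0.44, and Ndufb9, of the same protein family as Ndufa6, by -0.21 and -0.44. Ndufb5 differed by -0.21 in S105A and -0.43 in WT, Ndufb3 by -0.33 and -0.39, and Ndufb7, on the intermembrane space side, by -0.19 and -0.28.

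Ndufb6 was the distal gene with the narrowest spread. Its levels were 12.31 and 12.39 in S105A PE hearts, against 12.38 and 12.41 in S105A untreated hearts. In WT hearts they were 12.22 and 12.42 with PE, against 12.40 and 12.43 without. The groups overlapped in both genotypes, with array 8 and array 4 inside the untreated range. Its difference was -0.05 in S105A (SE 0.09) and -0.09 in WT (SE 0.09). The probe sets that name Ndufb4 and Ndufb4b together, which count for no member, differed by -0.20 and -0.18 in S105A and by -0.28 and -0.27 in WT.

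Ndufa4 and Ndufa4l2 carry complex I symbols but belong elsewhere. Ndufa4, which has been reassigned to cytochrome c oxidase, had levels of 12.13 and 12.21 in S105A PE hearts, against 12.44 and 12.54 in S105A untreated hearts, and 11.26 and 12.24 in WT PE hearts, against 12.21 and 12.06 in WT untreated hearts. Array 4 was above both WT untreated arrays, so its WT groups overlapped. Ndufa4l2, a paralogue induced by hypoxia, had levels of 7.81 and 7.54 in S105A PE hearts, against 7.64 and 7.78 in S105A untreated hearts, and 7.62 and 7.39 in WT PE hearts, against 7.71 and 7.59 in WT untreated hearts. It was the member for which arrays 7 and 3 were higher than arrays 8 and 4, with a difference of -0.03 in S105A and -0.14 in WT.

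Counted by separation, 32 of 35 genes had both PE arrays below both untreated arrays in S105A, against 25.2% of all genes, and Ndufa4l2, Ndufb6 and Ndufs7 overlapped. In WT 23 of 35 were separated in that direction, against 23.5% of all genes. In 16 of 35 all 4 PE arrays lay below all 4 untreated arrays, against 6.15% of all genes. With all arrays, genes with an untreated level of 12 or more (15 members) had a median difference of -0.21 in S105A and -0.39 in WT, and the 20 below that level -0.29 and -0.48.

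The study crossed genotype with PE, and the genotype difference in the PE effect was the S105A difference minus the WT difference. Its median over the 35 genes was 0.12, with a range of -0.06 to 0.44, against -0.01 over all genes. It was above 0 for 31 members, against 47.5% of all genes, and below 0 for Ndufa13, Ndufa2, Ndufa7 and Ndufa11. Ndufa8 had the highest value (0.44, SE 0.41), followed by Ndufs5 (0.35, SE 0.31) and Ndufa9 (0.25, SE 0.33). Limma called 0 of 35 and 0% of all genes, each member had an adjusted p of 1.00, and 0 members were higher at an unadjusted p under 0.05, against 0.903% of all genes. Array 3 decided the sign, since the median was -0.19 without it, with 33 of 35 below 0, and 0.55 without array 4. Without arrays 3 and 7 the median was -0.09, with 28 of 35 below 0.

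With PE, the level was higher in S105A than in WT hearts for 34 of 35 genes, against 46.9% of all genes, and 0 were called, against 0% of all genes. The median difference was 0.28, with a range of -0.05 to 0.49, against -0.01 over all genes. Ndufb10 had the highest difference, with levels of 9.15 and 9.39 in S105A PE hearts, against 8.33 and 9.23 in WT PE hearts (0.49, SE 0.26, limma adjusted p = 0.989). Array 7 of Ndufb10 lay between the WT arrays. Ndufs6 followed at 0.44 and Ndufa5 at 0.43, and the lowest were Ndufa11 (-0.05), Ndufb6 (0.03) and Ndufc2 (0.07).

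The S105A and WT PE arrays overlapped for 34 of 35 members, so 0 were separated as higher, against 10.5% of all genes. Ndufa11 was separated as lower, by less than the second decimal between arrays 8 and 3, against 13% of all genes in that direction. At an unadjusted p under 0.05, 0 members were higher, against 1.25% of all genes. The median was -0.07 without array 3, with 32 of 35 below 0, and 0.63 without array 4, when 18 of 35 were called against 3.57% of all genes. Without arrays 3 and 7 the median was 0.01, with 21 of 35 above 0. The calls without array 4 rest on 1 WT PE heart and are not a group result.

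Without PE, the level was higher in S105A than in WT hearts for 29 of 35 genes, against 50.9% of all genes, with a median difference of 0.09 and a range of -0.09 to 0.37. The median over all genes was 0.003. Limma called 0 of 35 and 0% of all genes, the smallest adjusted p of a member was 0.981, and 0 members had an unadjusted p under 0.05, against 2.43% of all genes for higher values. Both S105A untreated arrays were above both WT untreated arrays for 25 of 35 members, against 21.8% of all genes, and both were below for Ndufs7, against 22.7%. These 4 arrays did not include any that stood apart, and the median was between 0.08 and 0.12 with any 1 array left out.

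Ndufs6 had the highest difference without PE, with levels of 10.58 and 10.66 in S105A untreated hearts, against 10.28 and 10.23 in WT untreated hearts (0.37, SE 0.32, limma adjusted p = 0.998). Ndufa4 (0.35) and Ndufa1 (0.34) came next, and Ndufs7 (-0.09), Ndufs8 (-0.05) and Ndufa8 (-0.03) were lowest. The medians were 0.19 for the distal membrane arm, 0.18 for the matrix arm, 0.08 for the core and 0.07 for the proximal membrane arm. Across the 35 genes the difference had a Pearson correlation of -0.42 (Spearman -0.48) with the untreated level, a description across genes that share these arrays and that enter both measures.

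Markers of other cells were also compared between the genotypes without PE, where 49.1% of all genes were lower in S105A. Of 9 macrophage markers 8 were lower in S105A (median -0.25), with mean levels of 8.06 and 8.09 in S105A untreated hearts, against 8.25 and 8.48 in WT untreated hearts. The untreated WT pair itself had a median gap of 0.23 (array 2 minus 1) for this list, and the S105A pair 0.015 (array 6 minus 5). All 7 endothelial markers were lower (median -0.13), with a median gap of -0.20 in the untreated WT pair and 0.08 in the S105A pair. Both S105A arrays were below both WT arrays for 6 of 9 macrophage and 2 of 7 endothelial markers, against 22.7% of all genes. The 2 measured red cell markers Alas2 (-0.51) and Slc4a1 (-0.38) were lower too. Both had an unadjusted limma p under 0.05, against 504 of 19938 genes for lower values. The fibroblast (-0.03) and ventricular cardiomyocyte markers (-0.005) had medians near 0. With PE, 9 of 9 macrophage markers were lower in S105A (median -0.26), against 53.1% of all genes. The 7 endothelial (0.15) and 2 red cell markers (0.44) were higher, against 46.9%. Of the macrophage markers 0 were separated as lower (13% of all genes), and 3 of 7 endothelial and 1 of 2 red cell markers as higher (10.5%). The median macrophage gap within the PE pairs was 0.66 (array 7 minus 8) and 0.83 (array 3 minus 4). None of these markers was called, and their part in the complex I differences was not tested.

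**Figure D3:**
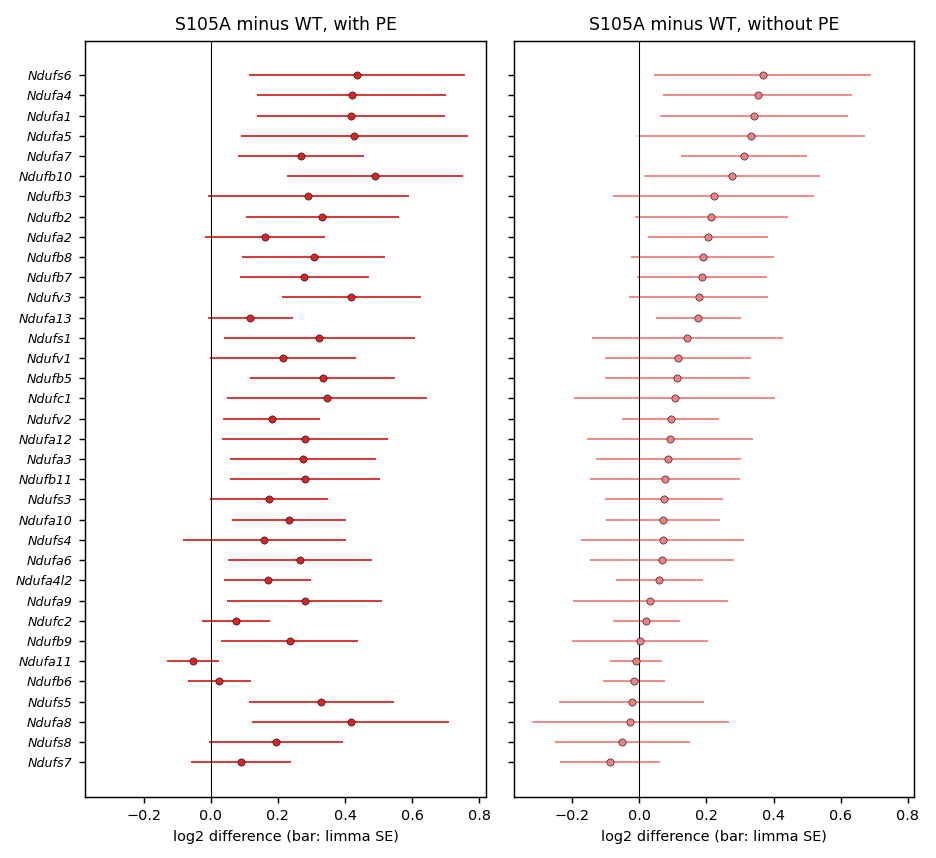
Log2 difference of S105A minus WT for each of the 35 genes (x axis), with PE on the left and without PE on the right, as points with limma standard errors; genes (y axis) run by their difference without PE. With PE 34 of 35 points lie above 0 and without PE 29 of 35; the bars are 1 standard error to either side.

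Among the mitochondrially encoded core subunits, 1 of 7 was measured. ND3, a membrane subunit at the junction of the arms, had levels of 13.31 and 13.46 in S105A PE hearts, against 13.48 and 13.57 in S105A untreated hearts. In WT hearts the levels were 13.04 and 13.49 with PE, against 13.51 and 13.47 without. Array 3 was again lowest, and array 4 lay between its controls. The difference was -0.14 in S105A (SE 0.15) and -0.23 in WT (SE 0.15). A second probe set with the ND3 symbol alone differed by -0.23 in S105A and -0.39 in WT. On that probe set array 4 (12.39) lay below both WT untreated arrays (12.47 and 12.52).

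Of 19 assembly factors, 17 were measured, and 0 passed the test in either genotype. Their median difference was -0.22 in S105A, with 14 below 0, and -0.30 in WT, with 16 below 0. Leaving out arrays 3 and 7 gave -0.15 in S105A and -0.06 in WT. Ndufaf4 differed by -0.38 in S105A and -0.66 in WT, and Ndufaf1, which helps to build the membrane arm, by -0.30 and -0.45. Of 8 regulators of respiratory genes, 0 passed the test and 8 were below 0 in both genotypes, with medians of -0.27 in S105A and -0.39 in WT, and of -0.19 and -0.13 without arrays 3 and 7. Ppargc1a, the coactivator that drives mitochondrial biogenesis, differed by -0.34 in S105A and -0.76 in WT, with levels of 10.20 and 10.46 in S105A PE hearts against 10.69 and 10.64 untreated. Its WT levels were 8.99 and 10.55 with PE, against 10.45 and 10.62 without, so the WT difference came from array 3. Tfam, which maintains mitochondrial DNA, differed by -0.29 in S105A and -0.63 in WT, and Esrra, an oestrogen-related receptor, by -0.25 and -0.45.

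Other mitochondrial gene lists had negative medians with PE as well, and these too were nearer 0 without arrays 3 and 7. The 45 subunits of complexes II to V had a median difference of -0.20 in S105A and -0.32 in WT, with 42 below 0 in each, and -0.13 and -0.06 without those arrays. The 77 mitochondrial ribosomal proteins had medians of -0.19 in S105A and -0.30 in WT, and -0.14 and -0.09 without those arrays. For 18 measured genes of fatty acid oxidation the medians were -0.31 in S105A and -0.69 in WT, against -0.09 and -0.12 without those arrays. No test of complex I against these lists was made, and 0 genes of any of them passed the test in either genotype.

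Markers of fibroblasts and macrophages were highest on the arrays where complex I genes were lowest. The mean level of 8 fibroblast markers such as Col1a1 and Pdgfra was 10.94 and 10.15 in S105A PE hearts, against 9.15 and 9.19 in S105A untreated hearts. In WT hearts it was 11.30 and 10.14 with PE, against 9.19 and 9.27 without. All 8 had a positive difference in both genotypes, with medians of 1.45 in S105A and 1.70 in WT. Without arrays 3 and 7 the medians were 0.93 and 0.99, and 1 of the 8 was below both untreated arrays in each genotype. By mean level, arrays 7 and 3 were the highest of their genotypes. Within the list, Postn (3.20 in S105A and 2.92 in WT), Col1a1, Col1a2 and Col3a1 differed most, and Lum by 1.06 and 1.05. Pdgfra (0.43 and 0.30), Dcn (0.21 and 0.08) and Tcf21 (0.17 and 0.20) differed far less. The 9 macrophage markers had mean levels of 9.41 and 8.69 in S105A PE hearts, against 8.06 and 8.09 in S105A untreated hearts, and 9.86 and 8.97 in WT PE hearts, against 8.25 and 8.48 in WT untreated hearts, with 9 of 9 above 0 in each genotype. The macrophage markers had median differences of 0.89 in S105A and 0.91 in WT, and of 0.56 and 0.50 without arrays 3 and 7. No marker is at 0 on this scale, and 0 of the fibroblast and macrophage markers were called. The part of other cells in the lower complex I levels was not tested.

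The ventricular cardiomyocyte markers had median differences of -0.06 in S105A and -0.15 in WT, and 8 and 9 of 12 below 0. Endothelial markers (7) had medians of -0.08 and -0.30. The 5 atrial markers had mean levels of 7.50 and 7.38 in S105A PE hearts, against 6.84 and 6.92 in S105A untreated hearts, and 7.46 and 7.10 in WT PE hearts, against 6.88 and 6.99 in WT untreated hearts. The higher means came mainly from Nppa, the natriuretic peptide gene that ventricles express under load, with levels of 13.76 and 13.08 in S105A PE hearts, against 10.73 and 10.92 in S105A untreated hearts. In WT hearts Nppa had levels of 13.95 and 12.92 with PE, against 11.11 and 11.84 without. Myl4 differed by 0.50 in S105A and 0.08 in WT, and Sln, Myl7 and Bmp10 lay below 0 in both genotypes. The median differences of the 5 were -0.03 in S105A and -0.01 in WT, and 0.04 and -0.15 without arrays 3 and 7. Of 5 red cell markers 2 were measured. Their median differences were -0.41 in S105A and -1.29 in WT, and -0.31 and -1.09 without those arrays.

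**Figure D4:**
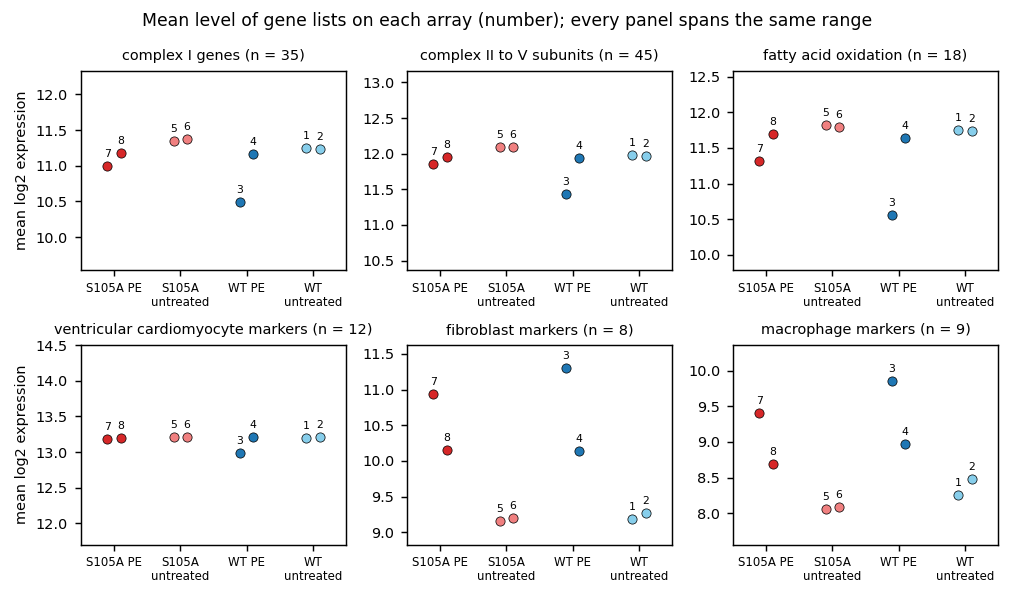
Mean log2 level (y axis) of 6 gene lists on each array, numbered, in each group (x axis); every panel spans the same number of log2 units. Arrays 7 and 3 are the lowest PE arrays of their genotypes for the complex I genes and the highest for fibroblast markers (10.94 and 11.30) and macrophage markers (9.41 and 9.86).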

How the data were processed

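The deposited values are log2 expression levels that the authors made with RMA, per the submitters' processing notes, from 1 Affymetrix array for each of 8 hearts, which name no version. RMA gives the arrays alike distributions (array medians 6.18 to 6.23), so a shift common to most genes would be removed. The table holds 35557 probe sets with values of 2.63 to 14.45; GEO's platform annotation names 21789 with 1 symbol and 1621 with several, and genes were taken from the former; a few probe sets with several symbols are given by name, and 1 alternative tested all probe sets. No detection calls were at hand, so no gene was dropped as undetected, and the number of arrays limits the precision. Groups came from the titles, which number 8 individuals. One limma model (3.58.1, R 4.3.3) with a mean for each group was fitted to 19938 genes (residual df 4), and 6 contrasts were adjusted by Benjamini-Hochberg at 0.05; the code was tested on simulated data. Alternatives were a low-level filter, averaged probe sets, all probe sets, quantile normalization, a trended robust variance, array weights, fits within pairs of groups, each array left out, and arrays 3 and 7 left out. The text names the core subunits, the extremes of each contrast, members whose probe sets disagree, and members outside the complex, with others for their roles. The members, lists and tests were chosen with earlier results of these data known. Motifs were searched as exact letters.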

Additional observations from a re-analysis of the deposited data

How the results depend on the processing

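With 2 animals in a group, the pooled SD of the members' median level between arrays of a group was 0.261. No paired analysis was possible because no replicate number is shared between groups. Under the low-level filter, all probe sets, quantile normalization, trended robust variance, array weights, averaged probe sets and fits within pairs of groups, 0 members were called in any contrast, and among the genes followed singly Ndufa11 changed direction for PE in WT with averaged probe sets (0.008). Arrays 3 and 7 were left out together only after seeing the data, and the spread then comes from the untreated arrays alone. Over all genes it called 58 for PE in WT and 137 for PE averaged, against 1 in each with all arrays, and 30 for PE in S105A, against 0, with 0 members among them. It moved the median PE difference in WT to -0.064 and that of S105A against WT with PE to 0.0057. Members above 0 then numbered 8 of 35 for PE in WT, and members below 0 numbered 28 for the genotype difference (4 with all arrays) and 14 for S105A against WT with PE (1 with all arrays). Among the genes followed singly in each contrast, it reversed Ndufb6 (0.0117) and Ndufv1 (0.0157) for PE in WT, Ndufb6 for PE averaged (0.0036), Ndufa9 in the genotype difference (-0.008), and Ndufb6 (-0.0314), Ndufc2 (-0.0161) and Ndufs6 (-0.0214) in S105A against WT with PE.

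With each array left out in turn, a group left with a lone array is assumed to vary like the others. Members called then numbered 0 to 30 for PE in WT, 0 to 31 for PE averaged and 0 to 18 for S105A against WT with PE, each highest without array 4, and 0 for the other contrasts. The medians ran from -0.814 to -0.064 for PE in WT, -0.374 to -0.159 for PE in S105A, -0.524 to -0.156 averaged, -0.187 to 0.554 for the genotype difference, -0.0746 to 0.626 for S105A against WT with PE, and 0.08 to 0.12 without PE. Without array 3, 8 of 35 members were above 0 for PE in WT, 33 were below 0 for the genotype difference and 32 for S105A against WT with PE. Only the genes followed singly, which are the extremes of each contrast and, for PE, the core subunits, are named here where their direction turned. For PE these were Ndufb6 (-0.188 to 0.0117) and Ndufv1 (-0.694 to 0.0157) in WT and Ndufa4l2 (-0.168 to 0.1004) in S105A. In the genotype difference they were Ndufa13 (-0.212 to 0.0958), Ndufa2 (-0.331 to 0.241), Ndufa7 (-0.344 to 0.258), Ndufa9 (-0.135 to 0.628) and Ndufa8 (-0.0442 to 0.932). In S105A against WT they were Ndufb6 (-0.0746 to 0.125), Ndufc2 (-0.0433 to 0.192), Ndufa5 (-0.125 to 0.981) and Ndufs6 (-0.13 to 1.0006) with PE, and Ndufs8 (-0.121 to 0.02) and Ndufa8 (-0.0695 to 0.0163) without. The cause of these turns was not tested.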
